A study of Bos taurus with 10 samples.

Results

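The MYC family and the proteins that share its partner MAX were followed in single bovine early blastocysts with and without *SOX2*. The genes were taken by name as *MYC*, *MYCN*, *MYCL*, *MAX*, *MXD1*, *MXD4*, *MXI1*, *MNT*, *MGA* and *MLX*, 10 of the 20112 genes in the deposited table. The set was chosen by measured values, the opposite differences of *MYC* and *MYCN* between *SOX2* KO and WT embryos, so the values of all 10 in that contrast are a description and carry no test here.

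The 5 WT embryos were injected as zygotes with mRNA of BE3, a cytosine base editor, and nothing else. The 5 *SOX2* KO embryos had received the same mRNA together with sgRNAs against *SOX2*, which direct BE3 to write premature stop codons. All 10 were produced in vitro and collected as early blastocysts, at 7.0 days after fertilization by their labels (the study's text names a slightly later time), and each Smart-seq2 library held the polyA RNA of 1 whole embryo. Every KO embryo was an edited founder of its own, genotyped by the authors from its cDNA, so mosaic editing is possible. Inner cell mass (ICM) and trophectoderm (TE) were not separated, so fewer cells of a type and less RNA per cell cannot be told apart.

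MYC, MYCN and MYCL are basic helix-loop-helix leucine zipper proteins that bind E-box DNA only as dimers with MAX, and the dimers activate genes of ribosome production, nucleotide synthesis and growth. The MXD proteins, MXI1 and MNT take MAX for themselves and recruit the SIN3 corepressors, while MGA carries MAX into a Polycomb complex that silences germline genes. MLX is the MAX-like partner of the glucose-sensing factors MLXIP and MLXIPL, and some MXD proteins and MNT can also pair with it. In pluripotent cells of the mouse, MYC and MYCN can stand in for each other to a large extent, and MGA is needed for the pluripotent cells of the blastocyst.

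Values below are normalized read counts, the reads of a gene divided by the size factor of the embryo. WT embryos had 2223670 to 5134855 reads assigned to genes and KO embryos 2578284 to 4337342, and a gene with 3 reads has a normalized read count of 1.77 to 4.45, depending on the embryo. The ribosomal RNA gene *RN18S1* accounted for 26.4% to 37.0% of WT reads and 32.5% to 45.0% of KO reads, and 15919 to 18092 genes were detected in WT against 17987 to 19813 in KO. Results were recomputed with the *RN18S1* share as a covariate and with equal totals after *RN18S1* was left out. The part of the number of detected genes in the results was not tested. Summed epiblast markers were 2669 to 3200 in WT and 1314 to 1715 in KO, with all 10 markers detected. Summed TE markers were 25595 to 37694 in WT and 35121 to 48263 in KO, and the 8 hypoblast markers in the table summed to 1551 to 2041 and 1576 to 1780. Log2 fold changes of the 8 single hypoblast markers ran from -2.85 to 1.53, 5 of them negative, so their sum does not describe each marker. Markers of cumulus cells, the follicle cells that surround the oocyte, summed to 10.4 to 62.2 in WT and 28.8 to 71.3 in KO without *CYP11A1*, which trophoblast also makes. With it, the 8 cumulus markers in the table summed to 25.2 to 146 in WT and 30.4 to 458 in KO, and no marker of any list was at 0 in all embryos. *SOX2* RNA itself was 56.5 to 93.4 in WT and 26.4 to 82.1 in KO (log2 fold change -0.55, adjusted p = 0.167 by limma), but an edited base leaves the transcript in place, so this level checks nothing about the editing.

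*MYC* and *MYCN*, the broadly active and the embryonic members of the family, lay at opposite ends of the contrast. In WT embryos 1 to 5, *MYC* had normalized read counts of 3.05, 5.93, 4.97, 29.5 and 14.2. In KO embryos 1 to 5, in the order of the table's columns, it had 51.2, 44.9, 15.1, 28.8 and 34.6. Only WT embryo 4 reached into the KO range, where it lay above KO embryos 3 and 4. Group means were 11.5 ± 10.9 in WT and 34.9 ± 14.1 in *SOX2* KO (SD, n = 5 each), and the log2 difference was 1.81 with a standard error of 0.49. These values rest on few reads, 4 to 38 per WT embryo and 13 to 46 per KO embryo. The 4 reads of WT embryo 1 have an exact 95% Poisson interval of 1.09 to 10.2 reads, which covers counting error only.

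*MYCN* ran the other way. Its normalized read counts were 67.9, 91.9, 35.8, 115 and 56.7 in WT embryos 1 to 5. The KO embryos had 17.8, 22.4, 41.9, 30.4 and 46.1. WT embryo 3 was the only WT embryo within the KO range, below KO embryos 3 and 5. The means were 73.5 ± 30.8 in WT and 31.7 ± 12.2 in *SOX2* KO (SD, n = 5 each), a log2 difference of -1.16 with a standard error of 0.32, from 36 to 148 reads in WT and 16 to 40 in KO.

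**Figure D1:**
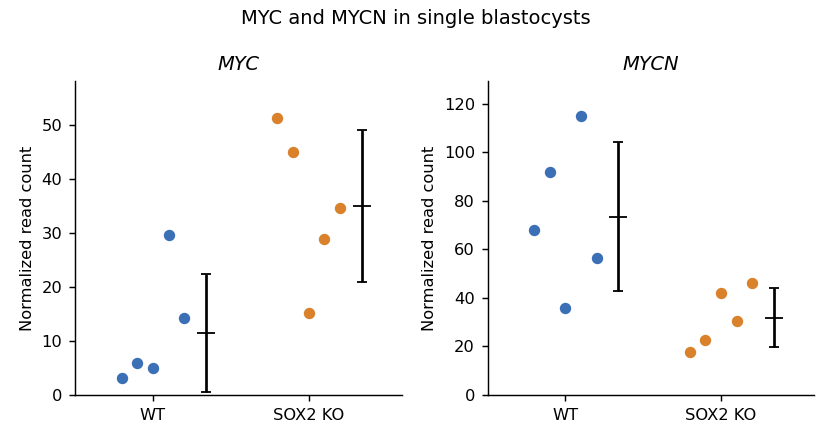
Normalized read counts of *MYC* (left) and *MYCN* (right) in each of the 5 WT and 5 *SOX2* KO blastocysts (points), with the group mean and SD beside them (bars). *MYC* points of KO embryos mostly lie above the WT points with 1 WT embryo at 29.5 among them, and *MYCN* points of KO embryos lie mostly below.

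Since both genes were read from the same library, their proportion does not depend on how libraries were scaled, although transcript length is not accounted for and the share is comparable only between embryos. Of the reads of both genes together, *MYC* took 4.30%, 6.06%, 12.2%, 20.4% and 20% in WT embryos 1 to 5. Its share was 74.2%, 66.7%, 26.5%, 48.6% and 42.9% in KO embryos 1 to 5. The groups did not overlap in this share. The set was chosen by the opposite directions of both genes, so this separation is a description only. How often other gene pairs separate in this way was not computed. The nearest embryos, WT embryo 4 and KO embryo 3, had overlapping 95% Wilson intervals of 15.3% to 26.8% and 16.2% to 40.3%. In the mean, the share was 12.6% ± 7.55 in WT and 51.8% ± 19.0 in *SOX2* KO (SD, n = 5 each). On the log2 scale, with 1 added to each normalized read count, the ratio of *MYC* to *MYCN* was -2.86 ± 1.01 in WT and 0.11 ± 1.14 in KO. Because of the added 1, this ratio, unlike the share, depends on scaling. The difference between groups was 2.97 and ran from 2.63 to 3.35 when any 1 embryo was left out. It was 2.47 with a pseudocount of 5 and 3.42 with the *RN18S1* share as a covariate.

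**Figure D2:**
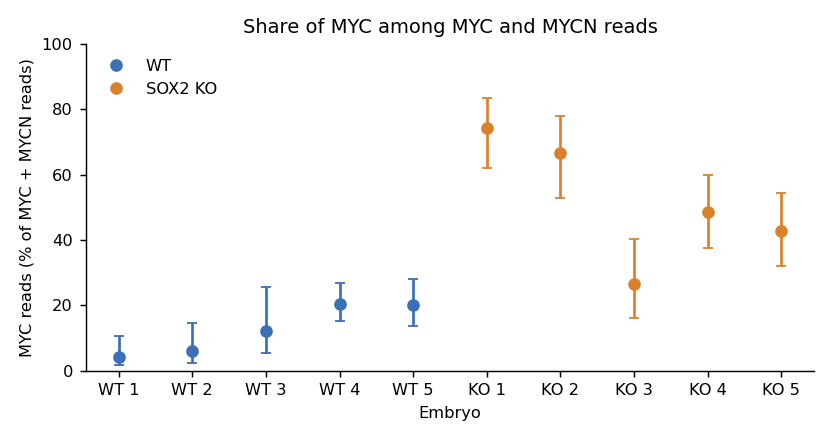
Share of *MYC* among the reads of *MYC* and *MYCN* in each embryo, in percent, with 95% Wilson intervals as bars. All 5 WT embryos lie at or below 20.4% and the KO embryos between 26.5% and 74.2%, with KO embryo 3 nearest to WT.

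Within the KO group, embryos 1 and 2 had the highest *MYC* and the lowest *MYCN*, while KO embryo 3 had the lowest *MYC* and the second-highest *MYCN*. In WT the pattern was different, with WT embryo 4 highest in both genes. After the mean of each group was subtracted, the log2 levels of *MYC* and *MYCN* had a Pearson r of 0.09 over the 10 embryos, which share depth and normalization between genes.

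*MYCL*, the third member, first known from lung cancer, had 64 reads over the WT and 31 over the KO embryos. Its normalized read counts were 8.39, 8.90, 8.95, 17.1 and 9.44 in WT and 8.91, 11.9, 2.33, 2.46 and 10.4 in KO embryos. KO embryos 3 and 4 were at the floor of 3 reads or under it, whereas the other KO embryos lay within the WT range. The log2 difference was -0.68 with a standard error of 0.50. It was -0.41 without KO embryo 3, -0.42 without KO embryo 4, -0.41 with a pseudocount of 5 and -1.30 after quantile normalization. Added up, normalized read counts of *MYC*, *MYCN* and *MYCL* were 95.6 ± 42.1 in WT, between 49.7 and 162, and 73.8 ± 13.3 in *SOX2* KO, between 59.3 and 91.1 (SD, n = 5 each). The range of this sum in KO lay inside that in WT.

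*MAX*, the partner that all 3 MYC proteins need, overlapped between groups. It had 92.3, 77.1, 72.6, 94.8 and 87.4 in WT and 79.1, 75.3, 115, 102 and 104 in KO embryos. The means were 84.8 ± 9.64 and 95.02 ± 17.1 (SD, n = 5 each), a log2 difference of 0.15 with a standard error of 0.19. *MAX* RNA thus differed by less than its spread between embryos, while the family members that dimerize with its product differed in opposite directions.

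The repressive partners of MAX differed in both directions. *MXD4*, a member linked to differentiation and growth arrest, had 2.97 to 12.4 in WT and 9.24 to 16.3 in KO embryos, a log2 difference of 0.82 with a standard error of 0.44. With the *RN18S1* share as a covariate it was 0.50, and 0.31 after quantile normalization. *MNT*, the broadly expressed antagonist that competes with MYC for MAX, had 15.3, 7.42, 19.9, 12.4 and 8.26 in WT and 18.9, 26.4, 22.1, 18.9 and 19.6 in KO. Only WT embryo 3 reached the KO range, and the log2 difference was 0.77 with a standard error of 0.36, and 0.45 with the covariate. *MXD1*, the founding MAD protein, had 18.3 to 34.8 in WT and a narrow 30.4 to 34.3 in KO, a log2 difference of 0.38 with a standard error of 0.27. For these 3 antagonists the means were higher in KO, as for *MYC*, and every one of them overlapped between groups.

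*MXI1*, another MAD-family repressor, differed in the other direction. Its normalized read counts were 18.3, 32.6, 44.7, 24.9 and 39.5 in WT and 23.4, 14.5, 22.1, 11.5 and 26.5 in KO embryos. WT embryos 1 and 4 lay within the KO range. The log2 difference was -0.67 with a standard error of 0.33, so the MXD and MXI1 repressors were not moved to 1 side as a group.

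*MGA*, the very large protein with both a T-box and a helix-loop-helix domain that tethers MAX to Polycomb complex PRC1.6, was the only gene of the 10 whose groups did not overlap. It had 613, 558, 533, 524 and 521 in WT and 343, 378, 304, 412 and 289 in KO embryos. The highest KO embryo thus stayed below the lowest WT embryo. The means were 549.8 ± 38.0 in WT and 345 ± 50.8 in *SOX2* KO (SD, n = 5 each), a ratio of 0.628 and a log2 difference of -0.68 with a standard error of 0.15, the smallest error among the 10 genes. *MGA* also had the most reads behind it, 3273 over the WT and 1607 over the KO embryos. Of all 20056 genes tested, 2.76% had every KO embryo below every WT embryo and 6.41% had every KO embryo above, against 1 and 0 of the 10 here.

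*MLX*, which brings MLXIP and MLXIPL to carbohydrate response elements, had 47.7 to 83.2 in WT and 32.3 to 82.1 in KO embryos. Its log2 difference of -0.32 had a standard error of 0.25, and it changed to 0.14 with the *RN18S1* share in the fit. In the ARS-UCD2.0 annotation, a later genome than the one used for counting, *MLX* overlaps *PSMC3IP*, a meiotic recombination factor. *PSMC3IP* had a log2 fold change of -0.62 (adjusted p = 0.216 by limma), and reads of the overlap cannot be assigned to either gene here. In the same annotation *MXI1* overlaps a long noncoding RNA gene, and *MGA* overlaps a protein-coding locus, pseudogenes and small RNA genes. The loci overlapping *MXI1* and *MGA* have no values among the genes measured. Whether they were part of the counting is not known.

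**Figure D3:**
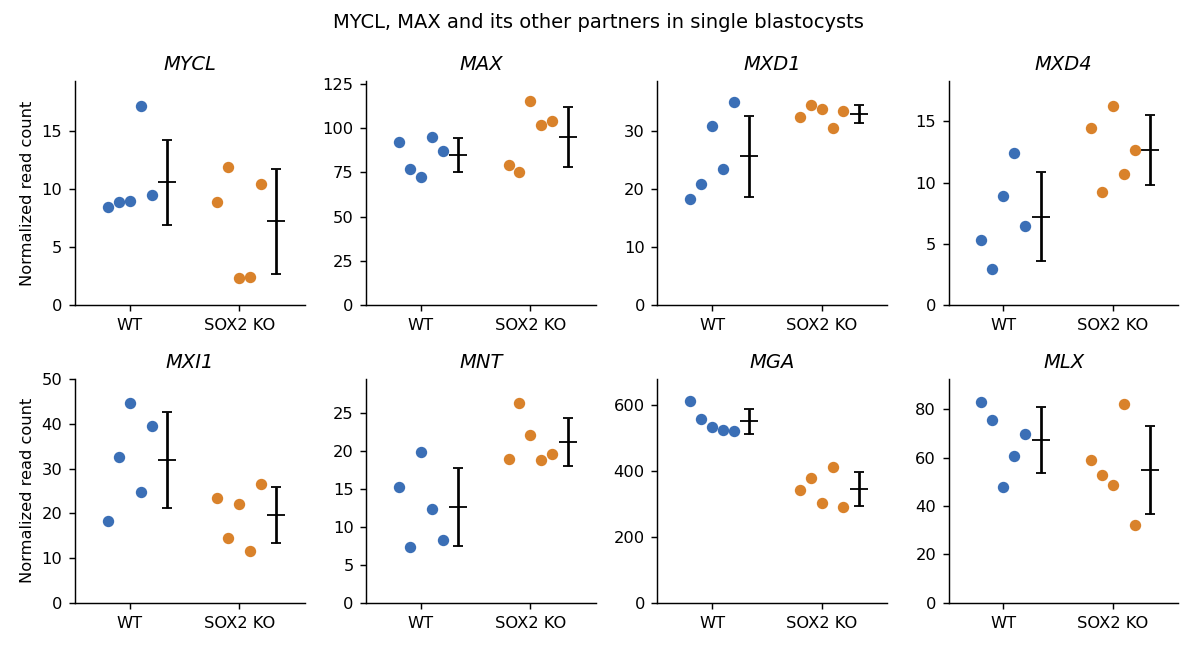
Normalized read counts of *MYCL*, *MAX* and 6 further partners in each of the 5 WT and 5 *SOX2* KO blastocysts (points), with the group mean and SD (bars). Only *MGA* shows separate groups, with KO embryos between 289 and 412 and WT embryos between 521 and 613.

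A gene was called when its adjusted p reached 0.05 and it differed 2-fold. By this rule 8.93% of all genes tested were called higher and 1.16% lower. On the adjusted p alone, the shares of all genes were 10.4% and 3.2%. No call is given for the 10 genes, because the direction of *MYC* and *MYCN* chose the list. Of the 8 genes other than *MYC* and *MYCN*, 4 had positive and 4 negative log2 differences, and their median was -0.09. The median over all genes tested was 0.25, but it depended on abundance and was -0.04 when only genes averaging 10 or more were kept. *MYC* differed by 1.501 to 2.23 on the log2 scale when single embryos were left out, and *MYCN* by -1.39 to -0.98. For *MGA* the corresponding range was -0.75 to -0.62. With the *RN18S1* share as a covariate the differences were 2.16 for *MYC*, -1.25 for *MYCN* and -0.54 for *MGA*.

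**Figure D4:**
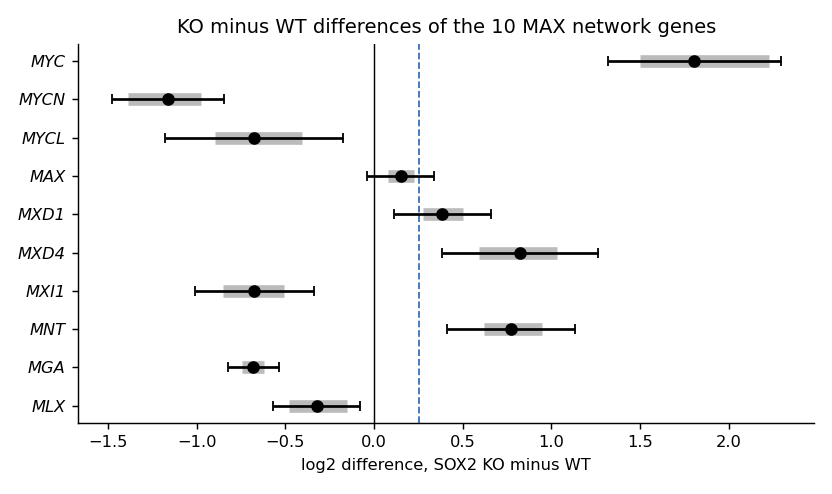
Log2 differences between *SOX2* KO and WT embryos for the 10 genes (points) with standard errors (bars) and the range when each embryo was left out in turn (grey bands). The dashed line marks the median of 0.25 over all genes tested. *MYC* at 1.81 and *MYCN* at -1.16 lie farthest from 0, on opposite sides.

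The remaining genes around the network were compared with limma over all 20056 genes tested, and p-values measure the spread between these 10 embryos. Of 5 further MAX and MLX network genes, none was called by limma, edgeR or DESeq2. Of these 5, 3 had an unadjusted limma p under 0.05 and 1 passed the adjusted p as higher (20%, against 10.4% of all genes). That gene, *MLXIP* (MondoA, a glucose sensor that needs MLX), rose, with 87.5 to 176 in WT and 174 to 287 in KO embryos (log2 fold change 0.80, adjusted p = 0.0131 by limma, and 0.3897 with the *RN18S1* share as a covariate). Its relative *MLXIPL* (ChREBP, the lipogenic sensor) had a log2 fold change of 0.79 that did not pass (adjusted p = 0.0713 by limma). Their shared partner *MLX* had no difference of this size.

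Cofactors through which MYC reaches chromatin and paused polymerase stayed closer together. None of the 16 was called by limma, edgeR or DESeq2, and their median log2 fold change was -0.24. An unadjusted limma p under 0.05 was found for 3, of which 1 (*DMAP1*, of the TIP60 complex, singled out after its values were seen) passed the adjusted p as lower. This was 6.25% of the 16, against 3.2% of all genes and 8.16% of genes averaging 100 or more. *HCFC1*, a host cell factor that binds MYC, had a log2 fold change of -0.04 (adjusted p = 0.914 by limma). The enzymes of MYC protein turnover also held no called gene among 12 in limma, edgeR or DESeq2. Negative log2 fold changes were found for 11 of the 12, with a median of -0.21 over the list. An unadjusted limma p under 0.05 was found for 4, and 3 of them passed the adjusted p, all lower. These were 25% of the list, against 3.2% of all genes and 8.16% of genes averaging 100 or more. *AURKA*, a mitotic kinase that shields MYCN from degradation, fell on this criterion, with 310 to 452 in WT and 236 to 370 in KO embryos (log2 fold change -0.50, adjusted p = 0.0498 by limma, and up to 0.124 without single embryos). With the *RN18S1* share as a covariate it was -0.28 (adjusted p = 0.536 by limma), and the adjusted p was also above 0.05 with pseudocounts of 0.1 (0.0554) and 5 (0.0521), with genes averaging 10 or more (0.0621) and after quantile normalization (0.0683). *HUWE1*, a ubiquitin ligase of both MYC and MYCN, had -0.49 (adjusted p = 0.0532 by limma). *SKP2*, a ligase subunit that also acts on MYC, passed as well (-0.85, adjusted p = 0.0162 by limma) and was singled out after its values were seen.

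Regulators upstream of *MYC* and *MYCN* came next. Of 25, 2 were called higher (8%, against 8.93% of all genes) and 1 lower (4%, against 1.16%), and their median log2 fold change was -0.03. On the adjusted p alone, 3 passed as higher and 3 as lower (12% each, against 10.4% and 3.2% of all genes). Of genes averaging 100 or more, 6.62% passed as higher and 8.16% as lower. *STAT3*, the LIF-activated factor that binds the *MYC* gene in mouse pluripotent cells, fell, with 205 to 245 in WT and 51.5 to 92.0 in KO embryos (log2 fold change -1.54 with a standard error of 0.18, adjusted p = 3.13e-05 by limma). Its groups did not overlap, and the call held under every alternative run. *IL6ST*, the receptor subunit gp130 that feeds STAT3, also passed the adjusted p alone, with 197 to 347 in WT and 109 to 150 in KO embryos (log2 fold change -0.93, adjusted p = 0.00227 by limma), and was singled out after its values were seen. The differences of *STAT3* and *IL6ST* were negative, as was that of *MYCN*, while that of *MYC* was positive. A link between these genes was not tested.

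*GLI2*, the Hedgehog effector that activates *MYCN* in neural progenitors, rose, with 2.36 to 5.44 in WT and 8.21 to 24.4 in KO embryos, from 2 to 7 reads against 10 to 21 (log2 fold change 1.87, adjusted p = 0.0120 by limma). *NOTCH1*, a receptor whose cleaved form activates *MYC* in T cells, had 0.777 to 17.9 in WT and 5.75 to 40.1 in KO (log2 fold change 2.22, adjusted p = 0.0236 by limma). This call was lost when WT embryo 1, 2 or 4 or KO embryo 1, 3 or 5 was left out, with adjusted p up to 0.0760, and both calls were lost with the *RN18S1* share as a covariate (adjusted p = 0.201 for *GLI2* and 0.436 for *NOTCH1* by limma). Quantile normalization also ended the call of *GLI2*. *CTNNB1*, the effector of WNT signals on *MYC*, had a log2 fold change of -0.03 (adjusted p = 0.932 by limma). *CNBP*, which binds a nuclease-sensitive element of the *MYC* promoter, had -0.41 (adjusted p = 0.0979 by limma).

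MGA was also read against its Polycomb partners and the germline genes that this complex keeps silent in other systems. Of 11 other PRC1.6 genes, 1 was called lower (9.09%, against 1.16% of all genes). On the adjusted p alone, 2 passed as lower (18.2%, against 3.2% of all genes and 8.16% of genes averaging 100 or more). *L3MBTL2*, the subunit that compacts chromatin, had 211, 153, 194, 220 and 215 in WT and 76.8, 62.1, 77.9, 60.8 and 106 in KO embryos (log2 fold change -1.38 with a standard error of 0.19, adjusted p = 1.63e-04 by limma). No KO embryo came near the lowest WT embryo, and the call was kept in every alternative, also with the *RN18S1* share (adjusted p = 5.12e-04 by limma). *HDAC2*, a deacetylase of this and other complexes, passed the adjusted p alone (log2 fold change -0.94, adjusted p = 0.00523 by limma) and was singled out after its values were seen. *HDAC1* had -0.48 (adjusted p = 0.0685 by limma) and *RYBP*, a RING1-binding subunit, -0.49 (adjusted p = 0.0860 by limma). The median of the 11 was -0.08, so *MGA*, *L3MBTL2* and *HDAC2* lay lower than most of the complex's other genes.

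Of 14 germline genes, 12 were tested. Of these, 3 were called lower (25%, against 1.16% of all genes) and 1 higher (8.33%, against 8.93%). The higher call was *STRA8*, which met the filter on the mean only through the KO embryos, and it is not read as a result. The median log2 fold change was -0.12, with 6 genes on either side of 0, *STRA8* among the positive ones. *TDRKH*, a piRNA pathway protein, fell, with 16.9 to 41.5 in WT and 4.65 to 10.7 in KO embryos (log2 fold change -1.98, adjusted p = 0.00224 by limma), and its call was lost only with the *RN18S1* share (adjusted p = 0.104 by limma). *SLC25A31*, a testis ATP carrier, had at most 10 reads in any embryo, with 2.29 to 9.94 in WT and 0 to 2.23 in KO (adjusted p = 0.0226 by limma), and was not called without KO embryo 3 or 5 (adjusted p up to 0.0654) or by DESeq2 (adjusted p = 0.0590), with a pseudocount of 5 or with the *RN18S1* share (adjusted p = 0.202 by limma). *SYCP3*, of the synaptonemal complex, had 34.1 to 158 in WT and 17.3 to 48.8 in KO (log2 fold change -1.07, adjusted p = 0.0455 by limma), a call lost without WT embryo 1, 4 or 5 or KO embryo 1, 4 or 5 (adjusted p up to 0.133). It was also lost with pseudocounts of 0.1 and 5, with genes averaging 10 or more, with equal totals without *RN18S1*, after quantile normalization and with the *RN18S1* share (log2 fold change -0.68, adjusted p = 0.493 by limma). *MAEL*, another piRNA factor, had -1.03 (adjusted p = 0.0589 by limma). Over the list, edgeR called 5 genes lower and DESeq2 4, each with 1 higher. *STRA8*, the retinoic acid-induced switch to meiosis and a known target of MGA, had 0 reads in all WT embryos and 1 to 5 reads in each KO embryo. It met the filter on the mean only through the KO embryos, and both groups were near the floor of 3 reads, so no fold or p-value is given. Without KO embryo 1 it fell under that filter and was not tested. Its call, the 1 higher call of the list, was lost with a pseudocount of 5, with quantile normalization and with the *RN18S1* share. With that covariate all 4 limma calls of the list were lost. A link between the level of *MGA* RNA and these germline genes was not tested.

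The genes that MYC dimers activate were set beside all genes and beside abundant genes. Among 66 such targets in 4 classes, 1 was called higher and 1 lower (1.52% each). The shares were 8.93% and 1.16% of all genes, and 2.29% and 1.34% of genes averaging 100 or more. Whatever their fold, 3 of the 66 passed the adjusted p as higher (4.55%, against 6.62% of genes averaging 100 or more). As lower, 5 of the 66 passed, and 51 of the 66 had a negative log2 fold change. Their median was -0.21, where it was -0.11 over the 4548 tested genes that averaged 100 or more, of which 62.0% were negative and 8.16% passed the adjusted p as lower, against 7.58% of the 66. With the *RN18S1* share as a covariate the median of the 66 was -0.07. Nucleolar and ribosome assembly targets had 23 of 24 negative values with a median of -0.30. *NPM1*, a nucleolar chaperone, fell at an adjusted p of 0.0447 by limma, with 1040 to 2322 in WT and 805 to 1512 in KO embryos (log2 fold change -0.64). Its adjusted p reached 0.136 when single embryos were left out, and the log2 fold change was -0.17 with the *RN18S1* share as a covariate (adjusted p = 0.734 by limma). *NCL*, nucleolin, had -0.32 (adjusted p = 0.140 by limma) although its groups, 1764 to 2115 and 1316 to 1717, did not overlap.

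Polyamine and nucleotide targets split in direction, with 9 of 14 negative and a median of -0.09. *SRM*, spermidine synthase, rose, with 765 to 1094 in WT and 1031 to 1764 in KO (log2 fold change 0.55, adjusted p = 0.0467 by limma, and up to 0.142 without single embryos and 0.285 with the *RN18S1* share), while *ODC1*, the classic MYC target that starts polyamine synthesis, had -0.25 (adjusted p = 0.403 by limma). The folate enzyme *MTHFD2* (0.85, adjusted p = 0.0147 by limma) and the thymidylate synthase *TYMS* (-0.82, adjusted p = 0.0162 by limma), both singled out after their values were seen, passed in opposite directions. Translation and folding targets had 11 of 12 negative values and a median of -0.21, with *EIF4A1* at -0.07 (adjusted p = 0.823 by limma) and the chaperonin *HSPE1* at -0.18 (adjusted p = 0.485 by limma).

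Of 16 cell cycle and glycolysis targets, 8 were positive and 8 negative. *CCND2*, a G1 cyclin that MYC induces, fell, with 156 to 219 in WT and 28.8 to 141 in KO embryos (log2 fold change -1.68 with a standard error of 0.28, adjusted p = 8.72e-04 by limma), a call that held in every alternative. *TERT*, the catalytic subunit of telomerase, had 2.33 to 18.9 in WT and 14.99 to 34.5 in KO (log2 fold change 1.57, adjusted p = 0.0383 by limma), but its groups overlapped, the call was lost without WT embryo 2, 4 or 5 or KO embryo 1, 2, 3 or 5 (adjusted p up to 0.1001), and it was also lost in edgeR (adjusted p = 0.0806) and DESeq2 (adjusted p = 0.0550), with a pseudocount of 0.1, with genes averaging 10 or more, after quantile normalization and with the *RN18S1* share (adjusted p = 0.387 by limma). The glycolytic enzymes *PKM* (0.14, adjusted p = 0.589 by limma) and *ENO1* (0.47, adjusted p = 0.131 by limma) did not pass. None of the 9 tested genes that MYC represses was called by limma, edgeR or DESeq2, and 3 had an unadjusted limma p under 0.05. Of these 9, 8 had positive values with a median of 0.45, among them *KLF6* at 0.45 (adjusted p = 0.120 by limma) and the growth arrest gene *GADD45A* at 0.08 (adjusted p = 0.823 by limma). *CDKN1B*, the cell cycle inhibitor p27, was the exception and passed as lower (-0.77, adjusted p = 0.0379 by limma), singled out after its values were seen.

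**Figure D5:**
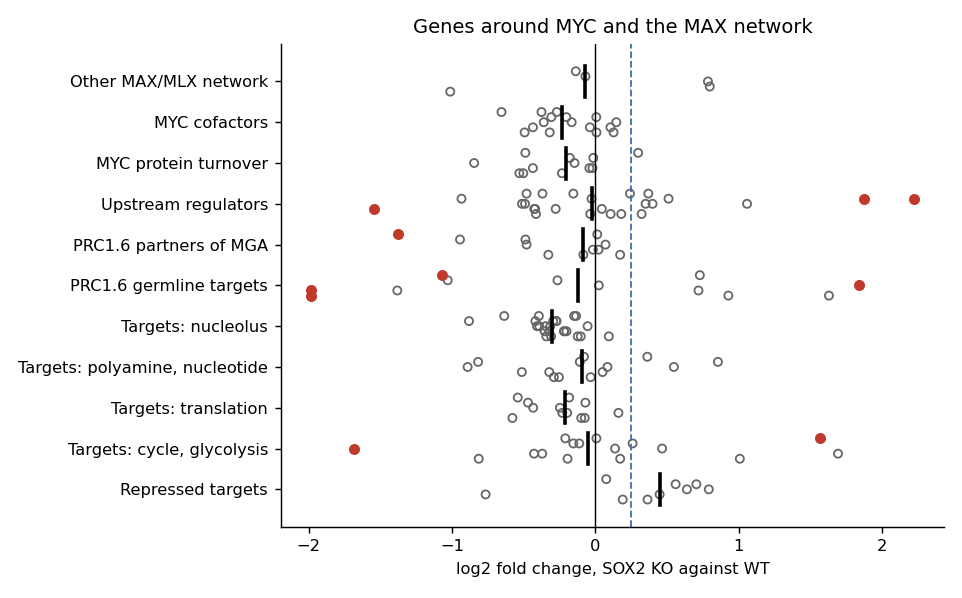
Log2 fold changes between *SOX2* KO and WT embryos for the genes tested in 11 lists around MYC and the MAX network, with called genes as filled red points, other genes as open points and list medians as black ticks. The dashed line marks the median of 0.25 over all genes tested. *STAT3*, *L3MBTL2* and *CCND2* are called genes on the left, at -1.54, -1.38 and -1.68.

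The genes next to *MYC* and *MYCN* on their chromosomes were looked up by order only. *GSDMC* and *FAM84B*, on either side of *MYC*, had log2 fold changes of 0.05 (adjusted p = 0.952 by limma) and -0.02 (adjusted p = 0.957 by limma). Beside *MYCN*, *FAM49A* had 1.03 (adjusted p = 0.0651 by limma) and *DDX1*, often co-amplified with *MYCN* in neuroblastoma, -0.44 (adjusted p = 0.0999 by limma). No neighbour was called.

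Across single embryos, the genes most like *MYC* after the mean of each group was subtracted were *DNAJC22*, *LRRC28* and *USP15*, with Pearson r of 0.97, 0.93 and 0.93 over 10 embryos. For *MYCN* they were *YWHAB*, *POLR2F* and *MGAT1*, with r of 0.94, 0.93 and 0.93. These are the best of 11334 genes searched and share depth and normalization with *MYC* and *MYCN*, so they describe these libraries.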

How the data were processed

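Single whole bovine early blastocysts, 5 WT and 5 *SOX2* KO, were measured by Smart-seq2. Per the submitters' processing notes, the tools were Trimmomatic, HISAT2, featureCounts and DESeq2 with genome ARS-UCD1.2. The annotation release, the strand setting and the treatment of reads mapping to several genes are not given in the sources used here, so reads of overlapping genes and paralogs may be shared. The table deposited by the authors holds a normalized signal (reads per gene over the DESeq2 size factor of each embryo). All 201120 values fell on whole multiples of a step particular to the embryo (within 1e-06 reads), which returned the reads. The lowest gene total was 11 reads. No molecular identifiers were used, so intervals cover counting error only. No 2 embryos held identical values (45 pairs). KO columns carry no replicate numbers of the labels and were used as embryos of the group.

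The main test was limma 3.58.1 (lmFit and eBayes with trend, R 4.3.3) on log2(value + 1) over 20056 genes averaging 1 or more, all 10 embryos, no covariates. Fold changes are on that scale, where the added 1 shrinks those of low genes. They can still lie above or below those fitted to reads. *MYC* had 1.81 here, 1.45 by edgeR and 1.56 by DESeq2, while *GLI2* had 1.87 here, 2.06 by edgeR and 2.18 by DESeq2. Calls needed an adjusted p (Benjamini-Hochberg over all genes tested) not above 0.05 and a ratio of 2 or more, or 0.5 or less. The quasi-likelihood test of edgeR 4.0.16 and DESeq2 1.42.0, run on the recovered reads, were alternatives, with other pseudocounts, filters and scalings, the *RN18S1* share as a covariate, and each embryo left out in turn. Summaries used Python 3.11.15, numpy 2.4.6, pandas 2.3.3 and scipy 1.17.1. The procedures were tested on simulated data.

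The members and the 11 gene lists (159 genes) were chosen with earlier results of these data known, the lists from general knowledge, so their counts are not independent evidence. Named were all members and, in each list, the called genes (6 at most) and the 2 genes with the highest mean, *SOX2*, *RN18S1*, the 3 genes most like *MYC* and *MYCN* (mean of 10 or more) and the nearest neighbours of both, taken from RefSeq gene order in ARS-UCD2.0. Others are marked as singled out. Some genes of the lists are not reported here by name. A planned motif search in promoters was not run, as no sequence was at hand.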

Additional observations from a re-analysis of the deposited data

Results flagged for a closer look

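A single embryo lay far from the other 4 of its group, by Dixon's test at the 95% level, in 2 of 44 groups examined, where chance alone would give about 2.2. *MYCL* had a normalized read count of 17.1 in WT embryo 4, against 8.39 to 9.44 in the other WT embryos. The mean log2 level of the 5 further MAX and MLX network genes (*MXD3*, *MLXIP*, *MLXIPL*, *TXNIP* and *ARRDC4*) was 5.55 in KO embryo 5, against 4.81 to 5.005 in the other KO embryos.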

How the results depend on the processing

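Over all genes tested, 1792 were called higher and 232 lower. The higher count was 1002 with a pseudocount of 5, 502 with a mean of at least 10, 629 (447 lower) after quantile normalization and 137 (83 lower) with the *RN18S1* share as a covariate. The cause of these shifts was not tested. Without a threshold on the fold change, 641 genes passed as lower. Leaving out single embryos gave 754 (without KO embryo 5) to 3050 (without KO embryo 4) higher and 176 to 266 lower. It was 1088, 1051 and 1079 higher without WT embryos 1, 2 and 4, and 850 and 1178 without KO embryos 1 and 3. edgeR called 1686 and 299, and DESeq2 1837 and 239. Higher genes made up 88.5% of calls, 72.5% with a mean of at least 10, 58.5% after quantile normalization and 62.3% with the covariate. Quantile normalization moved the median log2 fold change of all genes from 0.25 to -0.02. The log2 ratio of *MYC* to *MYCN*, 2.97 between groups, ran from 2.63 to 3.35 without single embryos. Over the other alternatives it ran from 2.47 with a pseudocount of 5 to 3.42 with the covariate. Of the 10 members only *MLX* changed sign, to 0.14 with the covariate. *MXD4* and *MNT* differed by 0.31 and 0.43 after quantile normalization. Targets that MYC activates had medians of -0.31 to -0.07 over the alternatives, with 0 to 2 called higher and 1 lower. No paired analysis was possible because KO columns do not show which numbered sample they hold. *MYC*, with 4 or 5 reads in 3 WT embryos, and *MYCL* are limited most by depth.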
